A study of Mus musculus with 35 samples.

Results

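The 9 genes described here are Prss22, Psapl1, Tgm1, Sprr1a, Krt7, Krt8, Krt18, Krt19 and Misp, a set of squamous repair and simple keratin genes measured in mouse whole lung after styrene inhalation. They are 9 of 17097 genes on the array. All 9 were chosen by their measured dose pattern, because several of them step upward with dose as far as 120 ppm, and all 7 dose groups entered that choice. Their levels and differences are therefore a description and carry no test. Each gene is given by its brightest probe set, the one with the highest mean over all arrays. Prss22 was read by 1420352_PM_at, Psapl1 by 1440186_PM_s_at, Tgm1 by 1451416_PM_a_at, Sprr1a by 1449133_PM_at and Misp by 1452081_PM_a_at. The keratins were read by 1423952_PM_a_at for Krt7, 1420647_PM_a_at for Krt8, 1448169_PM_at for Krt18 and 1417156_PM_at for Krt19.

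The study asked how lung gene expression varies with the dose of inhaled styrene, a volatile aromatic solvent that mouse lung cytochromes oxidise. Adult male wild type C57Bl/6 mice from Taconic, all of one genotype and with no transgene, breathed styrene at 1, 5, 10, 20, 40 or 120 ppm, or air alone (0 ppm), once for 6 h, and whole lung was taken the following morning. RNA was read on 35 Affymetrix HT MG-430 PM arrays, 5 in each of the 7 dose groups. The labels call the 5 arrays of a group biological replicates, but an array at 1 ppm and another at 5 ppm share an animal number in their titles, and p-values measure only the spread between these samples. Values are log2 signals, and a difference of 1 on this scale is a factor of 2.

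Keratins form the intermediate filaments of epithelial cells, each filament pairing a type I with a type II chain. Krt7 and Krt8 (type II) and Krt18 and Krt19 (type I) are the simple-epithelial keratins of single-layered linings, including airway, alveolar and mesothelial cells. Squamous cells instead build a cornified envelope, in which transglutaminases cross-link small proline-rich proteins beneath the membrane, and injured airway lining can express such genes while it flattens over a wound.

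The arrays at 120 ppm stood apart from the rest. Their upper quartile of signal was 6.32 to 6.77, against 6.90 to 6.99 at all other doses, their poly-A spike-in controls were at 7.93 to 8.81 against 6.10 to 7.06, and their highest nonspecific-hybridisation control was at 6.71 to 7.36 against 4.57 to 6.43. That highest control is used as the level below which a signal is called dim, and it is strict because it is the highest of 23 such controls. The part of these shifts in the results at 120 ppm was not tested. Where the 0 ppm arrays were dim, their level was raised to that control before the fold was taken, and the fold is written as a lower bound ("at least").

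Promoter sequences were available for 6 of the 9 members from RefSeq (GRCm38.p6, 250 bases before to 50 after the start, 300 in all), and Prss22, Krt19 and Misp are named only. They were searched on both strands for the AP-1 motif TGANTCA, the site of Fos and Jun family factors, which 7.81% of 32851 promoters hold. Sprr1a held it at 146 and 116 bases before the start, and 0.46% of promoters hold at least 2 matches. Psapl1 held it once, at 61 bases before the start. The other 4 members with a sequence held no match in this window. The antioxidant response element core TGACNNNGC, held by 12.4% of promoters, matched once in Sprr1a, overlapping its more distant AP-1 match, and GGAATG, the TEAD motif, held by 14.7%, matched once in Psapl1. TATAAA, held by 13.6%, matched once each in Sprr1a and Psapl1, and in 2 overlapping places in Krt8. Both AP-1 promoters are shown because they belong to the members with the sharpest peak and one of the steadiest ladders, and the promoters of Krt8 and Krt18 because the genes are neighbours with 0 protein-coding genes between them and encode a filament pair. Capitals mark AP-1 matches. The windows are chr3:92485832-92486131 (minus strand) for Sprr1a, chr5:36203771-36204070 (plus strand) for Psapl1, chr15:102004293-102004592 (minus strand) for Krt8 and chr15:102027966-102028265 (plus strand) for Krt18, each written 5′ to 3′ along the gene.
Sprr1a: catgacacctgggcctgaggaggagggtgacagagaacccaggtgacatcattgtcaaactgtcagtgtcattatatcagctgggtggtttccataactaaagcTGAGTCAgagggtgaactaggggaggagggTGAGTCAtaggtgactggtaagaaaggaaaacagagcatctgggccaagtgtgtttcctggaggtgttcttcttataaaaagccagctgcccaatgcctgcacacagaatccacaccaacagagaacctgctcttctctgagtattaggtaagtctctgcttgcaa
Psapl1: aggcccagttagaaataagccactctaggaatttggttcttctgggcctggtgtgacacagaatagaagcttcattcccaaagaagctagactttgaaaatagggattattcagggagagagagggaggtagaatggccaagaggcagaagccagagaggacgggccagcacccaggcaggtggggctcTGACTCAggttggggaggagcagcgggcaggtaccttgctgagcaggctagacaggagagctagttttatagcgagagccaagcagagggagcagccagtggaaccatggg
Krt8: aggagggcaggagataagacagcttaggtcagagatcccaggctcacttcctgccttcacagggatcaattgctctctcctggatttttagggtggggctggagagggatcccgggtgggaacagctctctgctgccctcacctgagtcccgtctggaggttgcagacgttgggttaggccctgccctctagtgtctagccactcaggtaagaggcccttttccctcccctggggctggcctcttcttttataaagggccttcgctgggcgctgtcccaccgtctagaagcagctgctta
Krt18: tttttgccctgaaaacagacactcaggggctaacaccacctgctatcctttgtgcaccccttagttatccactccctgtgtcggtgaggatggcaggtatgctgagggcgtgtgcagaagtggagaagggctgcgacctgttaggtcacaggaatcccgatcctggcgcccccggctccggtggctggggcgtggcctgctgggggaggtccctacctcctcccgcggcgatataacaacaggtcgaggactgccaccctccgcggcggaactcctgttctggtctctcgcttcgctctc

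In control lung 5 of the 9 genes were dim and 4 were bright. Prss22, Psapl1, Tgm1, Sprr1a and Misp lay between 3.65 and 5.64 on the 0 ppm arrays, below the highest nonspecific control on each of them. The 4 keratins lay between 10.40 and 11.64 on the same arrays, near the top of a scale whose highest value on any array was 13.973. Signals of different probe sets cannot be set against each other as amounts of RNA, so the classes are stated relative to the controls.

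**Figure D1:**
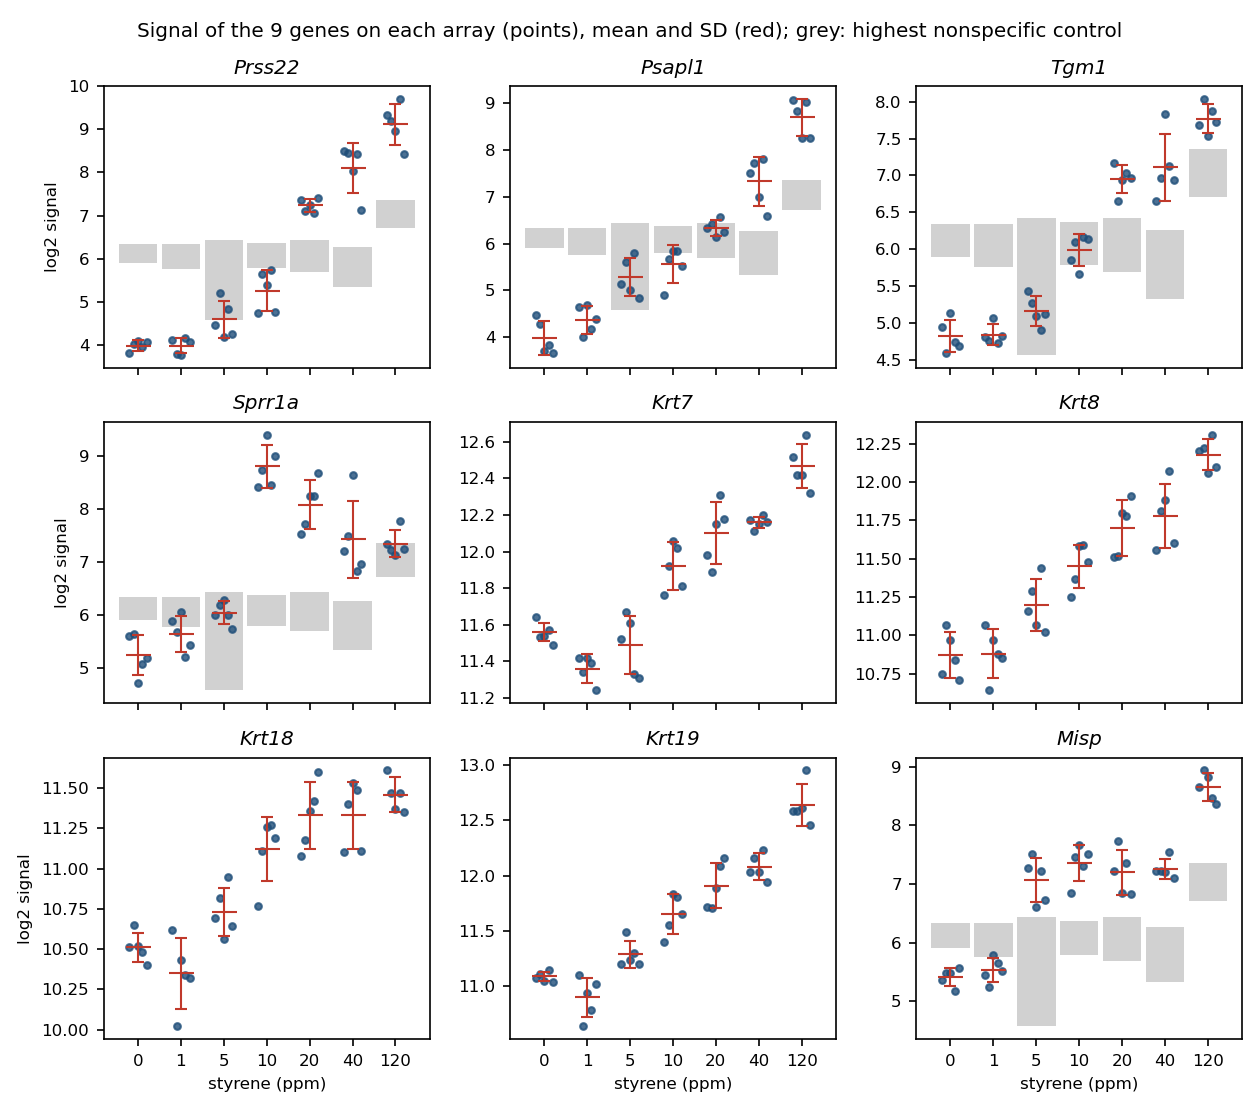
Log2 signal (vertical axes, a separate scale for each gene) of the 9 genes on each of the 35 arrays against styrene dose in ppm, evenly spaced. Points are arrays, red marks are the mean and SD of 5 arrays, and grey boxes span the highest nonspecific control of each dose group. Sprr1a peaks at 10 ppm with 8.42 to 9.40, whereas the other 8 genes have their highest mean at 120 ppm.

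Prss22, a secreted serine protease of airway epithelium, had the highest lower bound of fold at 120 ppm in the set. On the arrays it read 4.46, 5.21, 4.19, 4.82 and 4.25 at 5 ppm, 4.74, 5.64, 5.39, 5.73 and 4.77 at 10 ppm, and 7.37, 7.10, 7.25, 7.07 and 7.41 at 20 ppm. It then read 8.50, 8.45, 8.04, 8.44 and 7.14 at 40 ppm and 9.34, 9.19, 8.96, 9.71 and 8.42 at 120 ppm, while the 0 ppm arrays had 3.80, 4.02, 4.09, 3.94 and 4.07. All arrays from 5 ppm upward lay above every 0 ppm array, and 1 ppm (3.77 to 4.16) overlapped it. The mean log2 difference from 0 ppm was -0.01, 0.60, 1.27, 3.25, 4.13 and 5.14 in the order of the 6 doses (1, 5, 10, 20, 40 and 120 ppm) (SE 0.23 each). The 20 ppm arrays lay wholly above those of 10 ppm, of which 0 of 5 were above the highest control. Against the control level this made Prss22 at least 2.24-fold higher at 20 ppm, at least 4.11-fold at 40 ppm and at least 8.26-fold at 120 ppm than at 0 ppm. Below 20 ppm its signal stayed under the control level at 0 ppm, so no bound was available there.

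Psapl1 encodes a prosaposin-like protein, a relative of the precursor of the lysosomal sphingolipid activators. Its arrays read 5.14, 5.61, 5.01, 5.80 and 4.83 at 5 ppm, 4.89, 5.67, 5.85, 5.85 and 5.53 at 10 ppm, and 6.33, 6.42, 6.14, 6.57 and 6.24 at 20 ppm. At 40 ppm they read 7.51, 7.72, 7.00, 7.82 and 6.59 and at 120 ppm 9.07, 8.84, 8.26, 9.04 and 8.27, against 4.47, 4.27, 3.70, 3.82 and 3.65 at 0 ppm. Each dose from 5 ppm lay wholly above 0 ppm, and 20, 40 and 120 ppm each lay wholly above the dose before it. The mean difference from 0 ppm was 0.39, 1.30, 1.57, 2.36, 3.35 and 4.71 in dose order (SE 0.23 each). Psapl1 was at least 1.20-fold higher at 20 ppm, 2.38-fold at 40 ppm and 6.14-fold at 120 ppm. A dimmer probe set of Psapl1, 1429457_PM_at, gave the same order of doses with smaller differences, 0.80 at 10 ppm, 2.23 at 40 ppm and 3.69 at 120 ppm. The 40 ppm replicate 5 was the lowest of its group for both Prss22 and Psapl1.

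Misp, an actin-bundling protein of the cell cortex that positions the mitotic spindle, moved in 2 steps with a flat stretch between them. Its arrays read 7.27, 7.52, 6.61, 7.23 and 6.73 at 5 ppm, against 5.36, 5.48, 5.48, 5.17 and 5.57 at 0 ppm. At 10, 20 and 40 ppm they stayed between 6.83 and 7.74, and at 120 ppm they read 8.66, 8.94, 8.82, 8.46 and 8.36. The mean difference from 0 ppm was 0.12, 1.66, 1.95, 1.79, 1.85 and 3.24 in dose order (SE 0.17 each). The steps were 1.54 between 1 and 5 ppm and 1.39 between 40 and 120 ppm (SE 0.17 each), both without overlap of arrays, and the 1 ppm signal was dim on all 5 arrays. Misp was at least 1.99-fold higher at 5 ppm and at least 5.94-fold higher at 120 ppm than at 0 ppm.

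Tgm1 encodes the membrane-bound transglutaminase that cross-links the cornified envelope in keratinocytes. Its arrays read 5.85, 6.10, 5.67, 6.17 and 6.14 at 10 ppm, 7.17, 6.65, 6.94, 7.04 and 6.96 at 20 ppm, and 6.65, 6.97, 7.84, 7.13 and 6.94 at 40 ppm. At 120 ppm they read 7.69, 8.04, 7.53, 7.88 and 7.72, against 4.94, 4.59, 5.13, 4.74 and 4.69 at 0 ppm. All arrays from 10 ppm upward lay above every 0 ppm array, whereas 1 and 5 ppm overlapped 0 ppm and 20 and 40 ppm overlapped each other. The mean difference from 0 ppm was 0.02, 0.34, 1.16, 2.13, 2.29 and 2.95 in dose order (SE 0.15 each). Tgm1 was at least 1.84-fold higher at 20 ppm and at least 3.24-fold higher at 120 ppm.

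Sprr1a, a small proline-rich substrate of transglutaminase in the envelope, was the member whose pattern went against the reason for choosing the set. Its arrays read 6.00, 6.19, 6.28, 5.99 and 5.74 at 5 ppm, 8.42, 8.74, 9.40, 8.44 and 9.0 at 10 ppm, and 7.53, 7.72, 8.25, 8.24 and 8.67 at 20 ppm. At 40 ppm they read 7.21, 7.49, 8.63, 6.82 and 6.96 and at 120 ppm 7.33, 7.23, 7.13, 7.77 and 7.25, against 5.59, 5.64, 4.72, 5.07 and 5.19 at 0 ppm. Both 10 ppm and 120 ppm lay wholly above 0 ppm, and every 10 ppm array lay above every 120 ppm array. The mean difference from 0 ppm was 0.40, 0.80, 3.56, 2.84, 2.18 and 2.10 in dose order (SE 0.25 each). The step between 5 and 10 ppm was 2.76 (SE 0.25), and 3 of 5 arrays at 5 ppm were above the highest control. Sprr1a was at least 6.60-fold higher at 10 ppm and at least 2.4-fold higher at 120 ppm than at 0 ppm. These bounds use the control level of the 0 ppm arrays. At 120 ppm only 3 of 5 Sprr1a arrays were above their own, higher control, so the bound there is less secure. The 40 ppm replicate 3 was the highest of its group for both Sprr1a and Tgm1.

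Among the simple keratins, differences were smaller and spread over the doses. Krt19, the type I keratin with the shortest chain, read 12.58, 12.58, 12.61, 12.95 and 12.46 at 120 ppm and 11.40, 11.55, 11.83, 11.81 and 11.65 at 10 ppm, against 11.08, 11.11, 11.05, 11.15 and 11.04 at 0 ppm. Its 5 ppm arrays, 11.20 to 11.49, also lay wholly above 0 ppm. The mean Krt19 difference from 0 ppm was -0.19, 0.20, 0.56, 0.83, 0.99 and 1.55 in dose order (SE 0.10 each), or 2.93-fold higher at the highest dose. At 1 ppm 4 of its 5 arrays lay below all 0 ppm arrays.

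Krt8, known in mouse lung as a keratin of transitional alveolar cells after injury, read 12.20, 12.22, 12.06, 12.31 and 12.10 at 120 ppm and 11.25, 11.37, 11.58, 11.59 and 11.48 at 10 ppm, against 10.75, 11.07, 10.97, 10.84 and 10.71 at 0 ppm. The mean difference was 0.01, 0.33, 0.59, 0.84, 0.92 and 1.31 in dose order (SE 0.10 each). Its partner Krt18 read 11.61, 11.47, 11.37, 11.47 and 11.35 at 120 ppm and 10.77, 11.11, 11.26, 11.27 and 11.19 at 10 ppm, against 10.51, 10.65, 10.52, 10.48 and 10.40 at 0 ppm. For both genes every array from 10 ppm upward lay above all 0 ppm arrays, and 1 and 5 ppm overlapped 0 ppm. The Krt18 differences were -0.16, 0.22, 0.61, 0.82, 0.82 and 0.95 in dose order (SE 0.11 each). Krt18 had reached 86.5% of its 120 ppm difference at 20 ppm, where Krt8 had reached 63.8%. Whether the pair differed was not tested. A second Krt8 probe set, 1423691_PM_x_at, differed from 0 ppm by 0.63 at 10 ppm and 1.37 at 120 ppm.

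Krt7, the type II keratin of glandular and ductal linings, read 12.52, 12.42, 12.42, 12.64 and 12.32 at 120 ppm, 11.76, 11.92, 12.06, 12.02 and 11.81 at 10 ppm, and 11.42, 11.34, 11.42, 11.39 and 11.24 at 1 ppm, against 11.64, 11.53, 11.54, 11.57 and 11.49 at 0 ppm. All 5 arrays at 1 ppm lay below every 0 ppm array, and all arrays from 10 ppm upward lay above. The share of all genes wholly below 0 ppm at 1 ppm was not counted, so nothing is read from that separation. The mean difference was -0.19, -0.07, 0.36, 0.55, 0.60 and 0.91 in dose order (SE 0.08 each).

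**Figure D2:**
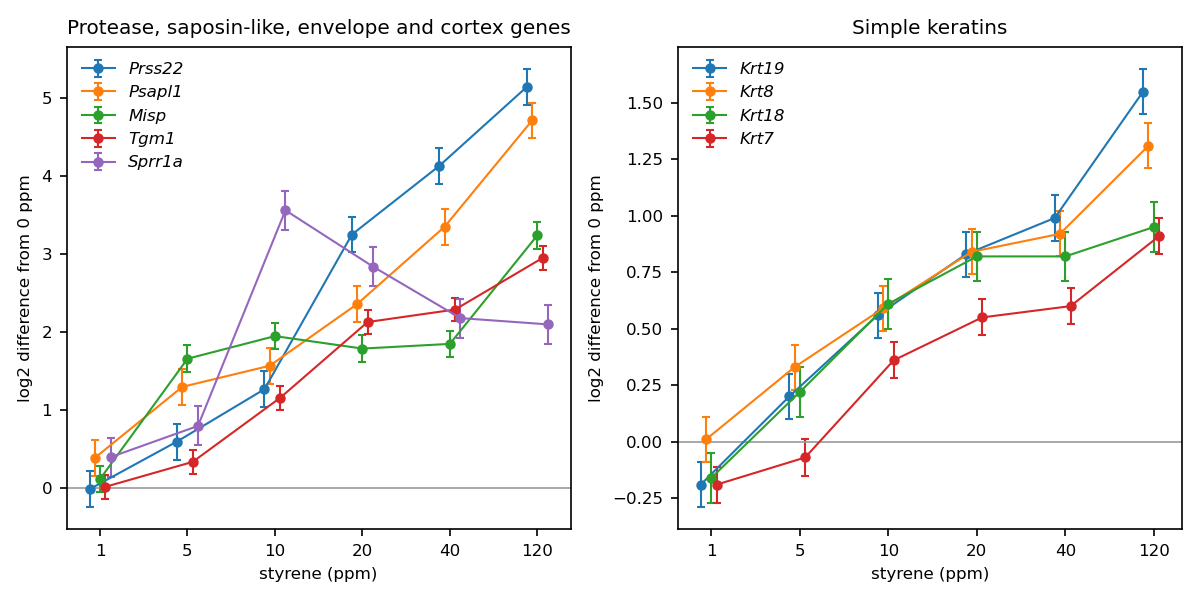
Mean log2 difference from 0 ppm (vertical axes, different scales) at 6 styrene doses in ppm, evenly spaced, with bars of 1 SE, for the protease, saposin-like, envelope and cortex genes on the left and the simple keratins on the right. Prss22 reaches 5.14 and Psapl1 4.71 at 120 ppm, Sprr1a peaks at 3.56 at 10 ppm, and the keratins end between 0.91 and 1.55.

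Over the 9 genes the median log2 difference from 0 ppm was 0.01, 0.34, 1.16, 1.79, 1.85 and 2.10 in dose order, and over all genes tested it lay between -0.024 and 0.011 up to 40 ppm and was 0.155 at 120 ppm. The number of members whose 5 arrays lay wholly above 0 ppm was 0 at 1 ppm, 5 at 5 ppm (Prss22, Psapl1, Sprr1a, Krt19 and Misp) and 9 at each higher dose. The same was true of 0.567%, 2.08%, 5.62%, 7.33%, 7.65% and 25.2% of all genes in dose order. Set against 40 ppm, 120 ppm lay wholly above for 4 members (Psapl1, Krt7, Krt19 and Misp) and for 22.6% of all genes, and the members' median difference was 0.56 against 0.137 over all genes. Because the members were chosen on these same values, nothing is read from these shares. Between neighbouring doses, 9 of 9 means were higher at 5 than at 1 ppm and 9 of 9 at 10 than at 5 ppm, but only 4 and 3 of those steps were free of overlap. At 40 against 20 ppm, Psapl1 alone separated, and the arrays of 20 and 40 ppm overlapped for the other 8 members. The share over all genes was not counted for these steps, and nothing is read from the step counts either.

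Likeness of dose pattern was measured as the root mean square gap between the 6 differences of a gene and those of a member, over 5302 candidate genes above the control level at 120 ppm. Prss22 and Psapl1 were each other's nearest gene, 0.624 apart, and Tgm1 was next for Prss22 at 1.259. Tgm1 lay nearest to Tnfrsf12a, the TWEAK receptor, at 0.24 and to the stress-response factor Atf3 at 0.355. Sprr1a lay nearest to Timp1, an inhibitor of metalloproteinases, at 0.453 and to the acute-phase gene Saa3 at 0.627. Timp1 differed from 0 ppm by 3.43 at 10 ppm and 2.53 at 120 ppm and Saa3 by 3.73 and 2.38, so both were, like Sprr1a, higher at 10 than at 120 ppm. Misp lay nearest to the ubiquitin hydrolase Uchl1 at 0.225 and to thymidine kinase Tk1 at 0.282. Uchl1 differed by 2.11 at 5 ppm, 2.00 at 40 ppm and 3.00 at 120 ppm, the flat stretch seen for Misp.

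The nearest genes to the keratins lay 0.07 to 0.105 away, about the SE of a keratin difference. The gap is not scaled to the size of the differences, which reached 0.91 to 1.55 for the keratins and 5.14 for Prss22. A smaller gap is therefore not a closer match in shape. The ribosome assembly factor Mrto4 was 0.10 from Krt7, Hkdc1 (a hexokinase-like gene) 0.105 from Krt8, the mitochondrial ribosomal gene Mrps18b 0.07 from Krt18 and the deacetylase Hdac6 0.104 from Krt19. Galectin-3, Lgals3, was the next nearest to Krt18 at 0.113. Within the set, Krt8 and Krt19 were 0.14 apart, Krt8 and Krt18 0.18, and Prss22 and Krt7 the farthest at 2.55. These are descriptions of 6 doses that share the 0 ppm arrays.

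Genes that work with the members were tested on all 17097 genes with limma and Benjamini-Hochberg adjustment, and "rose" and "fell" are used for an adjusted p under 0.05. Of 87 listed companion genes 80 were measured, in 6 lists. They are 28 cornified envelope genes, 5 transglutaminase and saposin genes, 19 other keratins, 12 serine proteases and inhibitors, 7 keratin linkers and Misp partners, and 9 markers of transitional injured epithelium. At 1 ppm 0 companion genes rose and 0 fell in limma (0% of all genes in either direction, and 6 genes over the whole array higher without 1 ppm replicate 2 or 1 without replicate 5), and 6 companion genes had an unadjusted p under 0.05.

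At 5 ppm 3 companion genes rose and 0 fell, against 1.13% and 0.0234% of all genes. That lower share is 4 genes, and it was 2 genes when either replicate 2 of 0 ppm or replicate 4 of 5 ppm was omitted. Tmprss4, a membrane serine protease of epithelia, averaged 8.17 ± 0.16 at 5 ppm and 7.52 ± 0.18 at 0 ppm (SD, n = 5 each), a difference of 0.65 (SE 0.10, limma adjusted p = 7.15e-05). St14, the epithelial protease matriptase, was higher by 0.48 (SE 0.11, limma adjusted p = 0.0103), and the actin-bundling gene Fscn1 by 0.60 (SE 0.15, limma adjusted p = 0.0252). The count of 3 was 1 without 5 ppm replicate 2 or replicate 4 and 5 without replicate 3. The call of St14 was lost without 0 ppm replicate 5 or 5 ppm replicate 2 or 4, and that of Fscn1 without 0 ppm replicate 1 or 2 or 5 ppm replicate 2, 4 or 5. At this dose Misp and 4 other members lay wholly above 0 ppm, as did 2.08% of all genes, but the members were chosen on these values. Of those members, Prss22 and Psapl1 were above the highest control on 1 of 5 arrays each and Sprr1a on 3. That control reached down to 4.57 at 5 ppm, against 5.33 or more at every other dose.

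At 10 ppm, the peak of Sprr1a, 10 companion genes rose and 9 fell, against 5.17% and 6.62% of all genes. Among the envelope genes only Sprr2a1, another small proline-rich gene, rose, and Sbsn and Evpl fell, out of 28 measured. Sprr2a1 ranged over 5.98 to 7.90 at 10 ppm and 4.66 to 4.94 at 0 ppm, at least 1.78-fold higher (limma adjusted p = 2.55e-05). The Sprr2 genes are near-identical copies, so the signal of one can hold RNA of others. Suprabasin, Sbsn, was 1.91-fold lower (limma adjusted p = 0.00066). Of the keratins outside the set, 0 of 19 rose, and Krt79 and Krt23 fell (limma adjusted p = 0.0134 and 0.00374). In the protease list Tmprss4 and St14 rose, and 4 fell, led by Prss8 (prostasin), which averaged 8.64 ± 0.27 at 10 ppm and 9.37 ± 0.19 at 0 ppm (SD, n = 5 each, limma adjusted p = 7.14e-05). In the injury list Sfn, Hbegf, Lgals3 and Clu rose and 0 of 9 fell. Hbegf, a growth factor of the EGF family, was 2.08-fold higher and Lgals3 1.65-fold higher (limma adjusted p = 0.000268 and 3.65e-09), and Fscn1 was 2.84-fold higher (limma adjusted p = 3.22e-09).

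At 20 ppm 15 companion genes rose and 8 fell, against 6.45% and 6.74% of all genes. The injury list had 7 risers and 1 faller among 9 genes, with Hbegf 3.75-fold higher (limma adjusted p = 1.71e-08) and the tight junction gene Cldn4 at least 2.04-fold higher (limma adjusted p = 0.0017). Among keratin linkers and Misp partners 4 of 7 rose and 0 fell, among them Fscn1 (2.60-fold) and ezrin, Ezr, which ties actin to the membrane (1.39-fold, limma adjusted p = 3.36e-05). Plk1, also among the 4, was dim on every array at 20 and 0 ppm. The envelope list had 1 riser, Anxa1, and 1 faller, Evpl, whose call was lost in 8 of the 10 fits that left out 1 array.

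At 40 ppm 16 companion genes rose and 4 fell, against 7.69% and 5.04% of all genes. With arrays centred on their median the calls over all genes split into 1500 higher and 586 lower, against 1315 and 862 as deposited. The 4 fallers were Tmprss13, Krt23, Prss8 and the stress gene Nupr1, and without 40 ppm replicate 4 only 2 fell, Krt23 among those lost. Krt80, a keratin of the type II class, rose 1.47-fold (8.92 to 9.07 at 40 ppm and 8.35 to 8.51 at 0 ppm, limma adjusted p = 0.000131), the only one of 19 other keratins to do so. Among linkers 5 of 7 rose, Fscn1, Plk1, Ezr, Plec and the plakin-family gene Eppk1, which was 1.79-fold higher (limma adjusted p = 0.000566). Plk1 and the faller Tmprss13 were dim on every array at 40 and 0 ppm. In the protease list Tmprss4 was 1.95-fold and St14 1.46-fold higher (limma adjusted p = 1.78e-08 and 0.000531), and Prss8 1.42-fold lower (limma adjusted p = 0.00463). In the injury list 6 of 9 rose, with Cldn4 at least 2.65-fold higher (limma adjusted p = 6.32e-05).

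**Figure D3:**
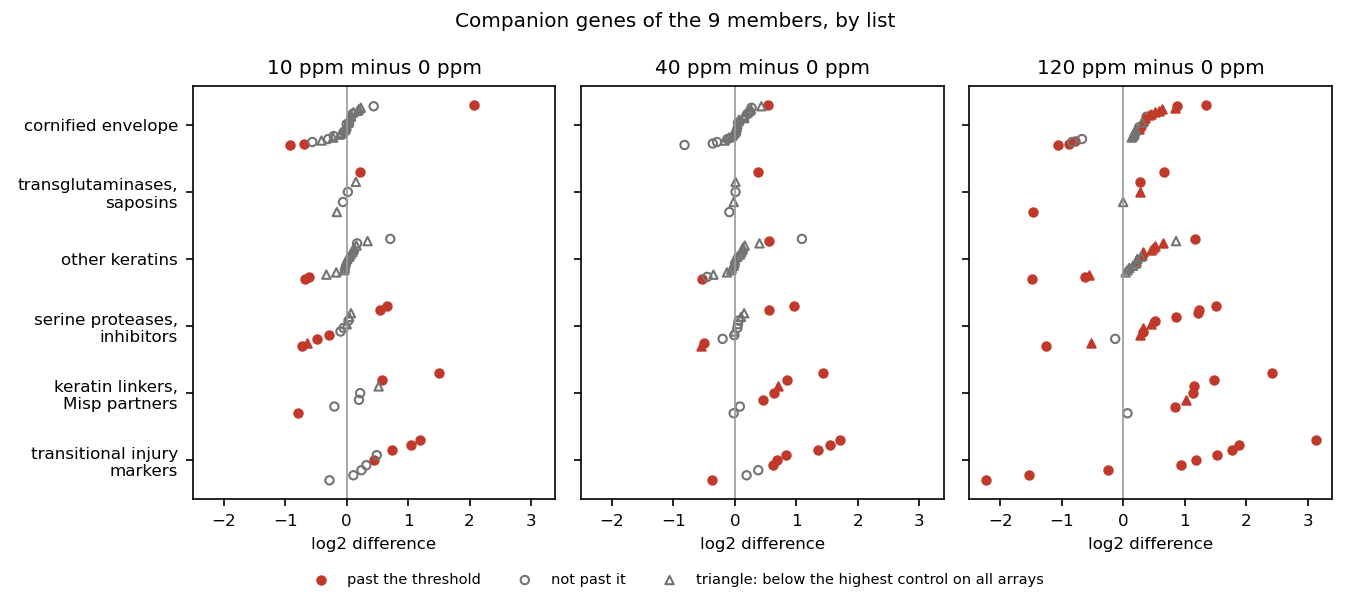
Log2 difference from 0 ppm (horizontal axes) of 80 companion genes in 6 lists (rows) at 10, 40 and 120 ppm. Each mark is 1 gene, filled red where limma's adjusted p is under 0.05, and triangles are genes below the highest nonspecific control on all arrays compared. The largest difference at 120 ppm is that of Cldn4, 3.13, and most filled triangles are at 120 ppm.

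At 120 ppm 46 companion genes rose and 12 fell, against 42.9% and 31.9% of all genes. Of the 46, 20 had all 5 arrays at 120 ppm above the highest control and 24 had none, so the signal of those 24 was dim on every array at 120 ppm. Of the envelope list 14 of 28 rose, but Jup (plakoglobin), a linker of junctions to keratin, was the only one of them with all 5 arrays above the control. Jup read 9.72 to 10.0 at 120 ppm and 8.48 to 8.61 at 0 ppm (2.56-fold, limma adjusted p = 5.68e-15). Desmoplakin, Dsp, fell in the same list (8.08 ± 0.41 at 120 ppm and 9.14 ± 0.25 at 0 ppm, SD, n = 5 each, 2.09-fold lower, limma adjusted p = 5.32e-07), with Ppl and Anxa1. Krt80 again was the only one of 8 rising keratins with all 5 arrays above the control (2.26-fold, limma adjusted p = 1.49e-12), and Krt23, Krt79 and Krt10 fell. Krt10 was dim on every array at 120 and 0 ppm.

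In the protease list at 120 ppm 9 of 12 rose and 2 fell, with St14 2.85-fold and Tmprss4 2.36-fold higher (limma adjusted p = 4.46e-14 and 8.67e-13) and Prss23 2.39-fold lower (limma adjusted p = 9.56e-13). Of the risers, only St14, Tmprss4, Prss8, Spint1 and Spint2 had every array at 120 ppm above the highest control. The other faller, Tmprss13, was dim on every 0 ppm array. Fscn1 was 5.39-fold higher and plectin, Plec, which links keratin filaments to junctions, 2.76-fold higher (limma adjusted p = 1.11e-15 and 9.86e-13). Misp3, a paralogue of Misp, had fallen at 10 ppm (1.74-fold lower, limma adjusted p = 0.000678) and rose at 120 ppm (2.24-fold higher, limma adjusted p = 1.12e-07). In the injury list 6 rose and Itgb6, Nupr1 and Clu fell. Cldn4 ranged over 8.56 to 10.09 at 120 ppm and 5.74 to 6.62 at 0 ppm, at least 7.97-fold higher (limma adjusted p = 1.13e-12), and Itgb6, an integrin chain of injured epithelium, was at least 1.29-fold lower (limma adjusted p = 5.7e-12).

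Between 120 and 40 ppm 43 companion genes rose and 10 fell, against 39.8% and 31.1% of all genes. Prss8 averaged 10.23 ± 0.17 at 120 ppm and 8.86 ± 0.12 at 40 ppm (SD, n = 5 each, 2.58-fold higher, limma adjusted p = 1.71e-11), the opposite direction to its lower signal at 10, 20 and 40 ppm. Plec was 2.03-fold and Fscn1 2.00-fold higher (limma adjusted p = 4.25e-09 and 2.77e-07). Of the risers, 18 had all 5 arrays at 120 ppm above the control and 23 had none.

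Markers of the cell types in lung were followed beside the members, since in whole tissue fewer cells of a type and less RNA per cell cannot be told apart. Pan-epithelial markers, averaged per array, lay at 8.94 to 9.31 at 5 ppm, 8.86 to 9.10 at 10 ppm, 8.89 to 9.15 at 20 ppm, 8.83 to 9.12 at 40 ppm and 8.28 to 8.71 at 120 ppm, against 8.61 to 8.87 at 0 ppm. Of these 6 markers 1 rose at 5 ppm and 2 rose at each of 10, 20 and 40 ppm, and 0 fell at these doses. The list's array means lay wholly above 0 ppm at 5 and 20 ppm. At 10 and 40 ppm the lowest, 8.86 and 8.83, were just under the highest at 0 ppm, 8.87, and Cldn7 and Elf3 were the markers that rose. At 120 ppm 2 of the markers rose (Cldn7 and Elf3) and 4 fell (Epcam, Cdh1, Esrp1 and Ehf). Of 4 club cell markers 2 fell at 10 ppm, 3 at 20 ppm and all 4 at 40 and 120 ppm. Their array mean was 12.10 to 12.26 at 10 ppm, 11.88 to 12.17 at 20 ppm and 10.95 to 11.84 at 120 ppm, against 12.51 to 12.62 at 0 ppm. Alveolar type 1 markers had 2 risers and 3 fallers of 5 at 120 ppm (array mean 11.18 to 11.49 against 11.47 to 11.63), and of 4 alveolar type 2 markers 1 fell at 120 ppm (12.44 to 12.91 against 12.69 to 12.78). The part of these lists in the members' differences was not tested.

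Most markers of basal and stratified epithelium were dim. Trp63, Krt14 and Ngfr mark airway basal cells, and Krt4, Krt13, Krt6a and Sprr3 mark oesophageal or upper airway squamous lining. All of these were below the highest control on every array at all doses, and Krt5 was so at every dose but 5 ppm. The control reached down to 4.57 at 5 ppm, against 5.33 or more at every other dose, so the 1 Krt5 array above it there is weak evidence of signal. The basal list had 0 of 6 genes past the threshold up to 40 ppm and 3 risers at 120 ppm (Krt14, Ngfr and Aqp3), all 3 below the control there, with an array mean of 4.35 to 4.66 at 120 ppm against 3.84 to 4.20 at 0 ppm. The stratified list had 4 of 6 risers at 120 ppm (array mean 4.81 to 5.18 at 120 ppm against 4.46 to 4.76 at 0 ppm), namely Ly6d and the dim Krt4, Krt6a and Sprr3. On the squamous side of the label, Tgm1 was above the controls on all arrays at 20 ppm, and Sprr1a and Sprr2a1 on all arrays at 10 ppm. Of the other markers in these lists, Krt15 was above the control on 1 or 2 of 5 arrays at each dose from 1 to 40 ppm, Calml3 on 2 or 3 of 5 from 0 to 40 ppm, and Ly6d on 3 to 5 of 5 at every dose. Aqp3 was above it on 1 or 2 arrays at 1, 5, 20 and 40 ppm.

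Goblet cell markers had their highest array mean at 10 ppm, the dose of the Sprr1a peak. It was 7.01 to 8.08 at 10 ppm, 4.68 to 7.38 at 20 ppm, 5.08 to 5.88 at 40 ppm and 4.44 to 5.72 at 120 ppm, against 4.87 to 5.67 at 0 ppm. From 20 ppm upward this range overlapped 0 ppm, as it did at 5 ppm (5.56 to 7.73). Of the 5 markers 1 rose at each of 5, 20 and 40 ppm, and 2 rose and 1 fell at 120 ppm. The risers at 120 ppm, Muc5ac and Spdef, were dim on every array there. At 10 ppm 2 of 5 rose, Clca1 by 6.05 and Agr2 by 3.83 on the log2 scale (limma adjusted p = 2.69e-06 and 1.4e-05), while Muc5ac and Spdef were below the control on all arrays of both doses. Mesothelial markers, from cells that also carry simple keratins, had an array mean of 6.71 to 7.4 at 1 ppm and 6.69 to 7.25 at 10 ppm, both wholly below the 7.69 to 8.15 at 0 ppm. At 10 ppm 6 of 8 fell. At 1 ppm 0 of 8 passed the threshold in limma and 6 had an unadjusted p under 0.05, with a median difference of -0.72. At 20 and 40 ppm 0 of 8 passed, and 2 and 0 had an unadjusted p under 0.05. At 120 ppm 2 rose and 3 fell (6.45 to 7.80). Ciliated markers had 0 of 5 past the threshold at 10 to 40 ppm, and 1 rose and 3 fell at 120 ppm (5.52 to 5.99 against 6.04 to 6.83). The part of these lists was not tested either.

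**Figure D4:**
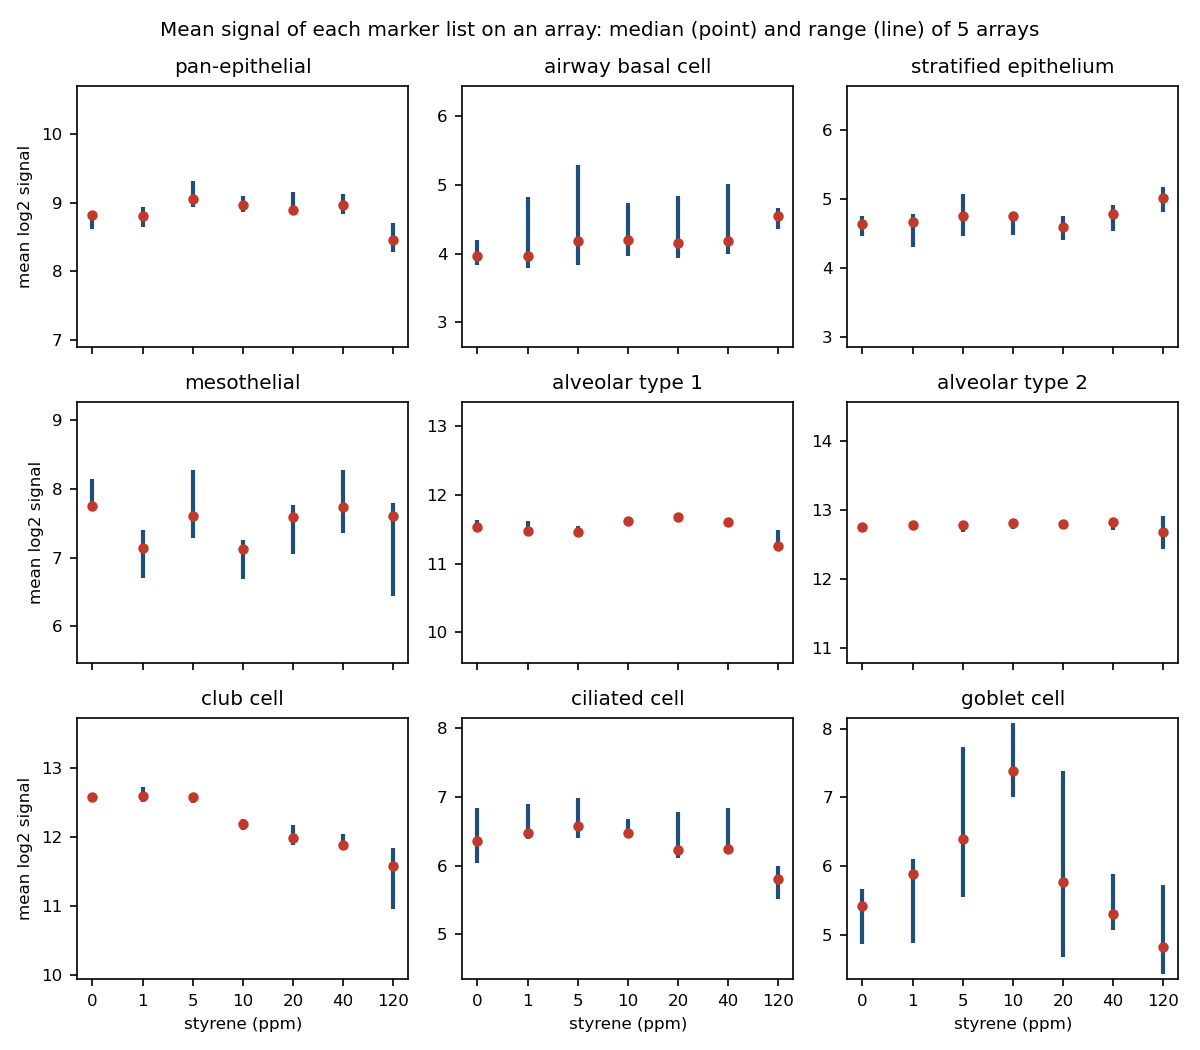
Mean log2 signal per array (vertical axes, each spanning its own range) of 9 cell type marker lists against styrene dose in ppm, evenly spaced. Points are medians and lines the range of 5 arrays. Goblet cell markers are highest at 10 ppm (7.01 to 8.08) and club cell markers lowest at 120 ppm (10.95 to 11.84).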

How the data were processed

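Whole-lung RNA was measured on 35 arrays in 7 dose groups of 5. The deposited values are log2 signals per probe set, and the submitters' processing notes name RMA and Partek for the authors' processing, with no version, setting or reference set of arrays. Scan dates and batches were not given in the sources used. No counts lie behind the values, so the number of arrays limits the precision. The deposit lists 45141 probe sets, 104 of them controls (23 nonspecific-hybridisation controls). The platform annotation gave 1 gene symbol for 28898 probe sets and several for 551, and 15588 were not listed with a gene. The brightest probe set stood for each of 17097 genes, 7180 of which had more than 1.

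All 35 arrays entered a linear model of the 7 dose means (limma 3.58.1 under R 4.3.3, with 28 residual degrees of freedom and 4.617 prior ones from eBayes, two-sided). Benjamini-Hochberg adjustment ran over 17097 genes, with a threshold of 0.05. Files were read with data.table (1.17.8) and handled with pandas 2.3.3 and numpy 2.4.6 in Python 3.11.15, and figures were drawn with matplotlib 3.10.9. The fit was tested on simulated data first.

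The members and all gene lists were chosen with earlier results of these data known. For the members limma's differences and SE are given with no test. Named companion genes are up to 4 called genes per list and comparison with the largest change, and genes that make up a count of 5 or fewer, or a list's remaining calls, are named beside them. The nearest genes by pattern are the 2 with the smallest root mean square gap over 6 doses, leaving out provisional names and genes dim at 120 ppm. Alternatives were averaging each gene's probe sets, a filter on dim genes, median centring, repeated quantile normalisation, only the groups compared, the 2 arrays of animal number 15 left out, a replicate block and each array left out in turn. Added after seeing the data were a fit without 120 ppm and 1 without 120 ppm replicates 4 and 5, the arrays with the lowest and highest upper quartile there. The dim level is the highest nonspecific control of each array.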

Additional observations from a re-analysis of the deposited data

Results flagged for a closer look

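In 63 groups of 5 arrays (9 genes at 7 doses), 2 held an array far from the others by Dixon's ratio, whose critical value is 0.71 and which chance exceeds in about 1 in 20 groups. Tgm1 at 1 ppm read 5.07 on replicate 3, and the nearest other array was 4.82 (ratio 0.738). Misp at 40 ppm read 7.55 on replicate 4, and the nearest was 7.23 (ratio 0.717).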

How the results depend on the processing

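The median difference of the 9 members kept its direction and moved by less than its spread over arrays under all alternatives run at 5 ppm and above. Leaving out 1 array in turn, it ranged over -0.03 to 0.04, 0.31 to 0.42, 1.11 to 1.24, 1.66 to 1.88, 1.78 to 1.89 and 1.97 to 2.20 from 1 to 120 ppm in dose order. Averaging the probe sets of Psapl1 lowered its difference to 0.88, 1.85, 2.79 and 4.20 for 5, 20, 40 and 120 ppm, and median centring moved Krt7 at 40 ppm to 0.65. Leaving out dim genes took 9020 genes out of the test. Companion genes that rose at 120 ppm then numbered 20 in place of 46 against 0 ppm, and 19 in place of 43 against 40 ppm. Of the 46, 24 had no array at 120 ppm above the highest control, and of the 43, 23 had none. The same filter gave 3015 in place of 7342 higher genes against 0 ppm and 2883 in place of 6798 against 40 ppm over the whole array. Leaving out 1 array, companion risers in dose order numbered 0, 1 to 5, 8 to 12, 13 to 16, 15 to 16 and 41 to 46, and 38 to 42 for 120 against 40 ppm. Fallers numbered 0, 0, 8 to 9, 6 to 8, 2 to 5 and 11 to 13, and 10 to 11 for 120 against 40 ppm. Over all genes, the fit without 120 ppm gave 1, 16, 1713, 1790 and 1368 lower genes from 1 to 40 ppm, where 0, 4, 1132, 1153 and 862 were reported. Fitting only the groups compared gave 8 lower at 5 ppm and 1735 at 20 ppm. Without the arrays of animal number 15, 1 gene rose at 1 ppm and 6 fell at 5 ppm. Leaving out 1 array gave 0 to 6 higher genes at 1 ppm and 2 to 6 lower genes at 5 ppm. The cause of these shifts was not tested. With the replicate block, companion risers in dose order numbered 0, 4, 10, 16, 16 and 46 (44 for 120 against 40 ppm), and 7 genes over the whole array were lower at 5 ppm. It ended no call of a named companion gene. Same-numbered arrays correlated at -0.443 to 0.535 with 0 ppm over the doses, and no dose had all 5 pairs over 0.1. At each dose 2 or 3 of 5 arrays correlated best with the 0 ppm array of their own number. Whether replicate numbers pair the arrays was therefore not settled. Dim signals at 0 ppm limit 5 of the members to lower bounds.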
